A study of Rattus norvegicus with 6 samples.

Results

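The platelet-derived growth factor (PDGF) family in rat is covered on these arrays by 6 genes, the receptors *Pdgfra* and *Pdgfrb* and the ligand chains *Pdgfa*, *Pdgfb*, *Pdgfc* and *Pdgfd*. They were chosen by symbol, with earlier results of these data known, and are 6 of the 13903 genes that could be named among 24684 probes. Each is represented by 1 probe printed on 1 spot, identified in the scanner files by its RefSeq mRNA: NM_012802.1 for *Pdgfra*, NM_031525.1 for *Pdgfrb*, NM_012801.1 for *Pdgfa*, NM_031524.1 for *Pdgfb*, NM_031317.1 for *Pdgfc* and NM_023962.2 for *Pdgfd*. Total RNA of pancreatic islets from male Wistar rats was hybridised to 1-colour Arraystar/Agilent arrays, 3 from rats aged 3 months and 3 from rats aged 12 months. Islets were obtained by collagenase digestion and were not sorted into cell types, so each array measured all cells of the preparation. The study used these arrays to ask which mRNAs differ between the ages.

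PDGF ligands are dimers of A, B, C or D chains, secreted by many cell types, that bind and pair receptor tyrosine kinases on neighbouring cells. PDGFRα binds the A, B and C chains and is typical of fibroblasts and mesenchymal progenitors, whereas PDGFRβ binds the B and D chains and is typical of pericytes and vascular smooth muscle. In islets, PDGFRα signalling is known for its part in the proliferation of young beta cells, and PDGFRβ marks the pericytes that wrap islet capillaries.

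The study examined *Pdgfra* as a target of the microRNA miR-34a. The miR-34 sequences are therefore shown, from RefSeq (assembly GRCr8), with the seed, bases 2 to 8 counted from the 5′ end, in capitals. All 3 mature miR-34 forms share this seed, the part of a microRNA that leads pairing with a target, although not every seed base has to pair.
rno-miR-34a-5p: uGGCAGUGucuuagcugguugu
rno-miR-34b-5p: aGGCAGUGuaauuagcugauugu
rno-miR-34c-5p: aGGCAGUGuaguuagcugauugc
The miR-34a form lies on the + strand at chr5:165815971-165815992, and the b and c forms lie on the - strand at chr8:60306657-60306679 and chr8:60306133-60306155. These arrays carry mRNA probes, and no microRNA level was analysed here.

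Values are log2 intensities after quantile normalization, and a probe was called measured on an array where the scanner software marked it well above background. Across arrays, 73.0% to 77.4% of probes were above background at 3 months and 59.5% to 64.2% at 12 months. The median intensity of the negative control spots was 29.5 to 31 at 3 months and 89.5 to 91 at 12 months. All 3-month arrays were scanned together and all 12-month arrays in another scan, so that age and scan cannot be told apart in any comparison below. The islet hormones *Ins1*, *Ins2* and *Gcg* were above background on all 6 arrays and differed between ages by 0.10, -0.12 and 0.19 log2 units (limma adjusted p of each above 0.05). Quantile normalization draws the values of the brightest probes together, so these differences cannot show whether the hormones changed. *Gcg* was 18.007 on every 3-month array. With each array scaled to its 75th percentile the differences were -0.67, -0.67 and -0.23 (limma adjusted p of each above 0.05). *Amy2a3*, the amylase of acinar cells, was also above background on all 6 arrays. In bulk tissue, fewer cells of a type and less RNA per cell cannot be told apart, which holds for each difference below. The p-values measure the spread between 3 rats of each age.

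Of the 6 genes, 4 passed the filter of being above background on at least 3 arrays and were tested, and 1 of these, *Pdgfrb*, was called. It was higher at 12 months. Over all 17941 probes tested, 8.37% were called at a limma adjusted p under 0.05 and 5.32% were called as higher at 12 months. A looser rule used the size and p limits of the study, more than a 2-fold difference at an unadjusted p under 0.05, with the limma p. By that rule *Pdgfrb* was again the only member called, beside 22.0% of all probes in either direction and 10.1% as higher. The supplement of the study names a paired test for its array p-values, and with that test 0 members met these limits (unadjusted p 0.0736 for *Pdgfrb*). The split of all calls depended on the scaling: 63.6% of probes called by adjusted p and 46.0% of those called by the looser rule were higher, against 46.2% and 28.2% with each array scaled to its 75th percentile. The ages did not overlap for 1 of the 4 tested members, against 39.2% of the 17876 tested probes with a value on every array. The median difference of the tested members was -0.10 log2 units, and that of all tested probes was -0.17. The receptors and ligands are described in turn.

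**Figure D1:**
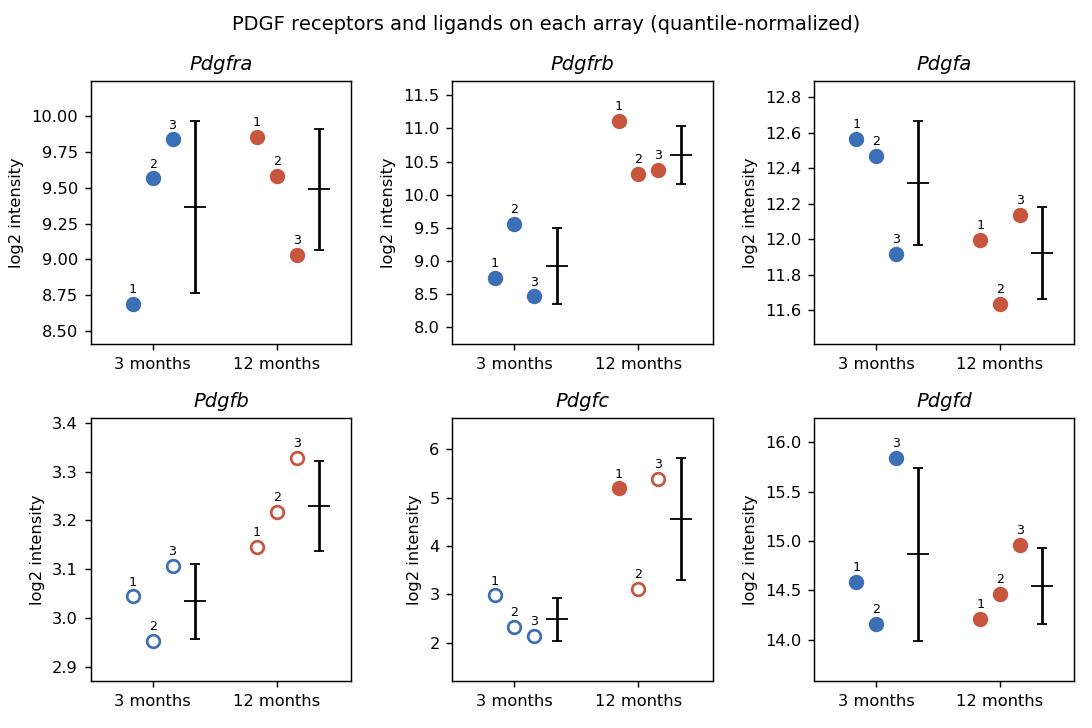
Log2 intensity (quantile-normalized) of the 6 PDGF genes on each array, with 3-month arrays in blue and 12-month arrays in red. Small numbers name the replicate, filled points are well above background and open points are not, and bars are the mean ± SD of 3 arrays; *Pdgfrb* is the one measured gene whose ages do not overlap, and each panel has its own scale.

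*Pdgfrb*, the receptor for B and D chains, was measured on all 6 arrays. Its log2 intensity at 3 months was 8.73 on replicate 1, 9.56 on replicate 2 and 8.46 on replicate 3. At 12 months it was 11.11, 10.31 and 10.38 on replicates 1, 2 and 3. Every 12-month array was thus above every 3-month array. The mean was 8.92 ± 0.57 at 3 months and 10.60 ± 0.44 at 12 months (SD, n = 3). The difference of 1.68 log2 units (limma SE 0.38, 95% confidence interval 0.77 to 2.59), a 3.20-fold rise, passed the test with an adjusted p of 0.0453. It was larger than 94.4% of the differences of all tested probes, and its p ranked 1322 of 17941. The exact two-sided permutation test gave p = 0.1, the smallest that 3 arrays against 3 can give.

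The direction of the *Pdgfrb* difference was the same in all 18 alternative analyses, with values of 1.42 to 2.02 log2 units, but the adjusted p passed 0.05 in 9 of them. Leaving out 1 array at a time, the call was kept without 3-month replicate 2 (adjusted p 0.0387) and without 12-month replicate 2 (0.0482). It was lost without 3-month replicate 1 (limma adjusted p 0.133), 3-month replicate 3 (0.116), 12-month replicate 1 (0.150) and 12-month replicate 3 (0.102). The smallest difference, 1.42, was the one without 12-month replicate 1, the array with the highest value.

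*Pdgfra*, the receptor for A, B and C chains, was also measured on all 6 arrays. At 3 months its log2 intensity was 8.69, 9.57 and 9.84 on replicates 1, 2 and 3, and at 12 months it was 9.86, 9.58 and 9.03. The ages overlapped over most of their range, with the lowest value on 3-month replicate 1 and the next lowest on 12-month replicate 3. The mean was 9.36 ± 0.60 at 3 months and 9.49 ± 0.42 at 12 months (SD, n = 3). The difference of 0.13 log2 units was smaller than its standard error of 0.39 (limma adjusted p 0.835; exact permutation p = 0.6). Its 95% confidence interval ran from -0.79 to 1.04, so that neither a fall nor a rise within that range could be resolved with 3 arrays of each age. The sign turned when 1 array was left out: the difference was -0.21 without 3-month replicate 1 and -0.06 without 12-month replicate 1.

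The scanner intensity before normalization between arrays also carries the brightness of each whole array, so it gives no separate support. For *Pdgfrb* it was 133, 690 and 388 at 3 months and 4351, 2176 and 1236 at 12 months, without overlap. For *Pdgfra* it was 129, 692 and 1025 at 3 months and 1914, 1298 and 516 at 12 months, with overlap. Before normalization both receptors were lowest on 3-month replicate 1, whereas the normalized *Pdgfrb* value was lowest on 3-month replicate 3 (8.46).

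**Figure D2:**
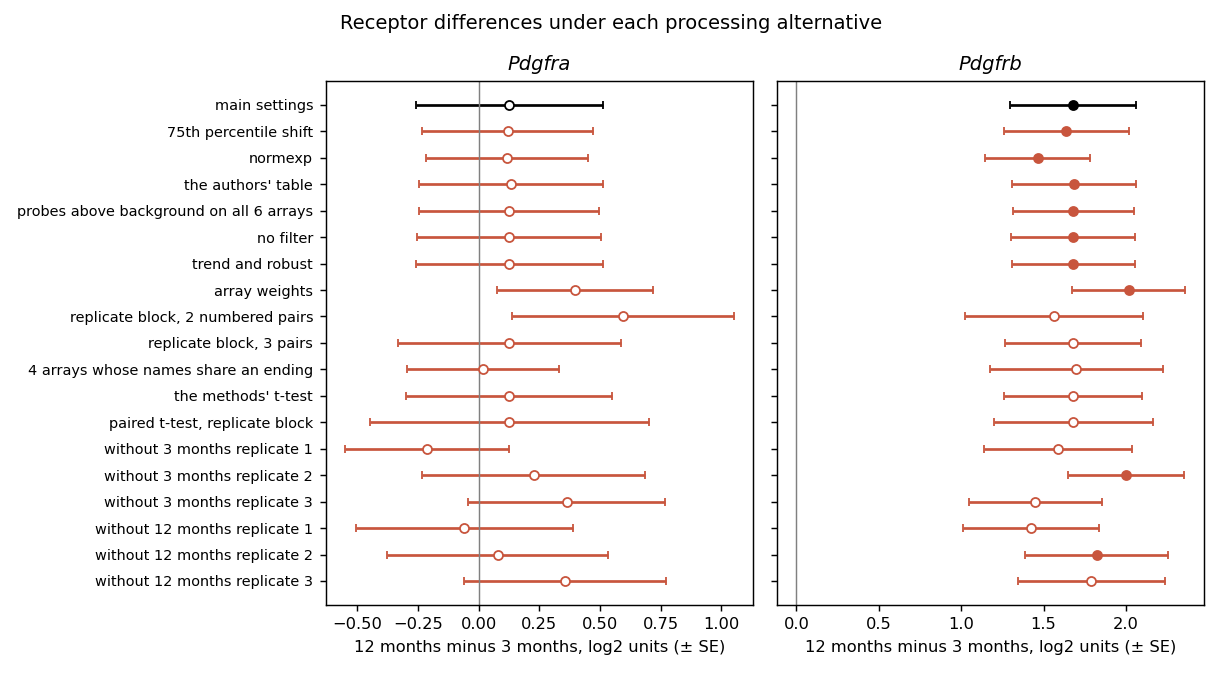
Difference between ages (12 months minus 3 months, log2 units) of *Pdgfra* and *Pdgfrb* under the settings of the report (black) and 18 alternatives (red), with bars of 1 SE and filled points where the adjusted p is under 0.05. Every *Pdgfrb* value lies between 1.42 and 2.02, whereas *Pdgfra* runs from -0.21 to 0.59 and is never called.

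Within each array, the difference between the receptors was then compared between the ages, which asks whether one changed more than the other. The log2 value of *Pdgfra* minus that of *Pdgfrb* was -0.05, 0.004 and 1.38 on the 3-month arrays and -1.25, -0.73 and -1.35 on the 12-month arrays. The ages did not overlap. The change was -1.55 log2 units, with an exact permutation p of 0.1 and 0.167 after Benjamini-Hochberg adjustment over 5 pairs of family members. Since 0.1 is the smallest p of this design, the test could not pass 0.05. The change was negative in all 10 alternatives that could be run, from -1.80 to -1.09, and was smallest without 3-month replicate 3. *Pdgfra* minus *Pdgfa*, a receptor and its ligand, changed by 0.52 (exact permutation p = 0.6, adjusted 0.6). The other 3 pairs each hold a gene that was not measured on most arrays, and no change is given for them.

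*Pdgfa*, the chain of PDGF-AA, was measured on all 6 arrays. Its log2 intensity was 12.56, 12.47 and 11.92 on the 3-month replicates and 11.99, 11.63 and 12.13 on the 12-month replicates. The ages overlapped because 3-month replicate 3 lay below 12-month replicates 1 and 3. The mean was 12.32 ± 0.35 at 3 months and 11.92 ± 0.26 at 12 months (SD, n = 3), a difference of -0.40 log2 units (limma SE 0.28, 95% confidence interval -1.07 to 0.28, adjusted p 0.355; exact permutation p = 0.3). With each array scaled to its 75th percentile in place of quantile normalization the ages did not overlap. That scaling moves the median of all tested probes from -0.17 to -0.40, and the difference did not pass the test under any alternative.

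*Pdgfd*, the chain of PDGF-DD, a ligand of PDGFRβ, was measured on all 6 arrays. Its log2 intensity was 14.59, 14.16 and 15.84 at 3 months and 14.21, 14.46 and 14.96 at 12 months. The value on 3-month replicate 3 stood above the other 5, which lay between 14.16 and 14.96. The mean was 14.86 ± 0.87 at 3 months and 14.54 ± 0.38 at 12 months (SD, n = 3). The difference was -0.32 log2 units (limma SE 0.47, 95% confidence interval -1.43 to 0.80, adjusted p 0.656; exact permutation p = 0.7), and it turned to 0.17 without 3-month replicate 3.

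*Pdgfc*, the chain of PDGF-CC, a ligand of PDGFRα, was above background on 0 of 3 arrays at 3 months and on 1 of 3 at 12 months, and it was not tested. Its log2 intensity was 2.98, 2.33 and 2.14 at 3 months and 5.19, 3.12 and 5.38 at 12 months, and the array on which it was measured was 12-month replicate 1. With the normexp background correction the values were 6.20, 6.04 and 6.05 at 3 months and 6.74, 6.16 and 6.80 at 12 months, which overlap. No fold is given, because the lowest signal that counted as measured was itself higher on the 12-month arrays, at 4.26 to 5.13 log2 units against 2.89 to 3.17. Without the filter on dim probes the limma adjusted p was 0.0928.

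*Pdgfb*, the chain of PDGF-BB, binds both receptors and is made by endothelial cells and platelets. No array measured it above background. Its log2 intensity was 3.04, 2.95 and 3.11 at 3 months and 3.15, 3.22 and 3.33 at 12 months. No fold is given, because neither age was measured.

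The genes whose profile over the 6 arrays lay closest to each receptor were found among 9086 genes measured on all arrays, by the mean absolute difference between log2 profiles centred on their own mean. For *Pdgfra* these were *Tnfrsf25* (0.09 log2 units), *Pros1* (0.09) and *Ccna2* (0.10). Their differences between ages were 0.04, 0.26 and 0.20 log2 units. For *Pdgfrb* they were *Cited2*, *Pld1* and *Plat*, at 0.14 log2 units each. *Pld1* differed between ages by 1.86 log2 units, *Cited2* by 1.61 and *Plat* by 1.40. These likenesses rest on 6 points each and are descriptions. The genes were matched to the receptors over these same arrays, so their age differences follow from that choice and no p is read here.

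The 5 pathway lists hold genes that act before, at and after the receptors, and also the VEGF family and related receptors. Together they name 95 genes, of which 69 could be tested. Of these, 5 rose and 2 fell at an adjusted p under 0.05, which is 10.1% of the 69 beside 8.37% of all probes. By the looser rule 13 were higher and 4 lower, or 24.6% beside 22.0%. The median difference of the 69 genes was 0.28 log2 units, beside -0.17 for all tested probes. Genes named by a small p tend not to overlap between ages, so overlap is given below as description only. It was absent in 39.2% of all tested probes with a value on every array.

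Ligand processing and binding covers the proteases that release active chains and the proteins that hold them, and none of its 9 tested genes was called (median -0.02). *Plat*, tissue plasminogen activator, which cleaves PDGF-CC, had log2 intensities of 10.19, 11.04 and 9.87 at 3 months and 12.33, 11.49 and 11.46 at 12 months, without overlap. Its difference was 1.40 (limma SE 0.40, adjusted p 0.0742). *A2m*, the plasma protein alpha-2-macroglobulin, which binds PDGF, was 6.74, 7.13 and 7.74 at 3 months and 8.46, 7.76 and 7.997 at 12 months, a difference of 0.87 (adjusted p 0.138). The ages did not overlap for either gene.

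Among receptor adaptors and effectors, 24 of 34 genes on the array were tested, with 2 higher, 1 lower and a median of 0.10. *Gab1*, a docking protein that recruits PI3-kinase and the phosphatase SHP2 to activated receptors, was 8.12, 8.63 and 7.996 at 3 months and 10.63, 10.93 and 10.65 at 12 months. It rose by 2.49 log2 units (limma SE 0.27, adjusted p 0.00648), and the call held without any 1 array. *Jak2*, a kinase that also serves cytokine receptors, was 7.12, 7.67 and 7.13 at 3 months and 9.13, 8.73 and 9.05 at 12 months, a rise of 1.67 (SE 0.26, adjusted p 0.0193). *Plcg2*, a phospholipase C best known from blood cells, was 10.93, 10.29 and 10.98 at 3 months and 9.41, 9.35 and 9.34 at 12 months. It fell by 1.37 log2 units (SE 0.27, adjusted p 0.0313). For these 3 genes no 12-month array fell within the 3-month range. The calls of *Jak2* and *Plcg2* were lost without either replicate 1 or either replicate 3 (adjusted p 0.063 to 0.0887 and 0.0895 to 0.119). The main PI3-kinase regulatory gene *Pik3r1* was not above background on any array.

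**Figure D3:**
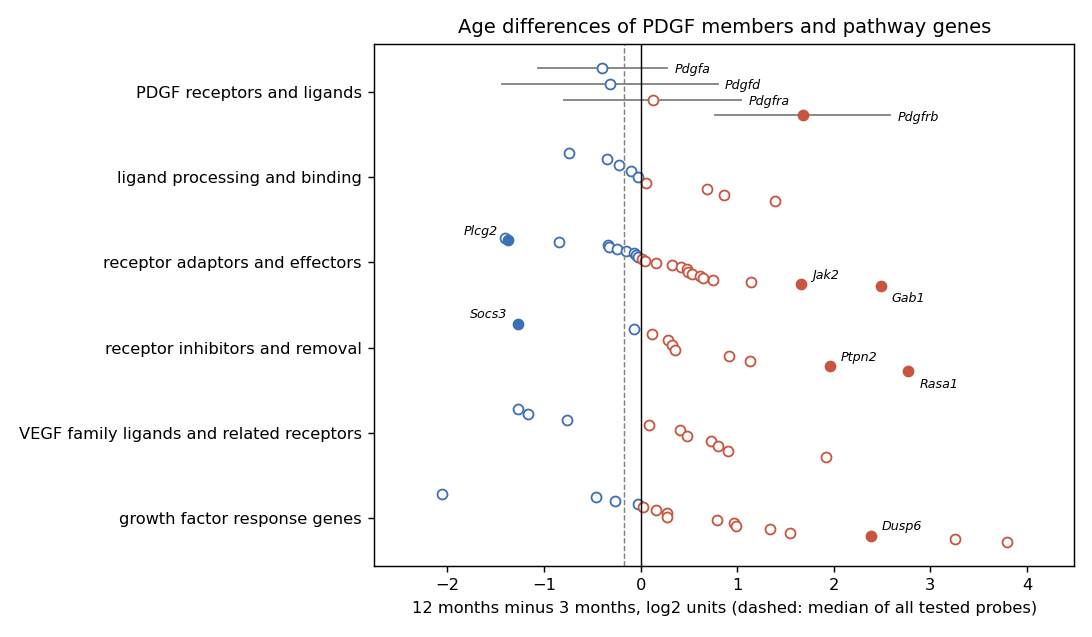
Age differences (12 months minus 3 months, log2 units) of the tested PDGF genes, with 95% confidence intervals, and of 69 tested genes by list. The lists cover the PDGF pathway and the VEGF family with related receptors. Each point is a gene, red is higher and blue lower at 12 months, and filled points have an adjusted p under 0.05. The dashed line is the median of all tested probes, -0.17; of the named filled points *Gab1* and *Rasa1* lie above 2.4 and *Plcg2* and *Socs3* below -1.2.

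All 10 genes of receptor inhibition and removal on the array were tested, with 2 higher, 1 lower and a median of 0.34. *Rasa1*, the Ras GTPase-activating protein that docks on PDGFRβ and shuts Ras off, was 6.93, 7.25 and 7.50 at 3 months and 9.79, 10.14 and 10.08 at 12 months. It rose by 2.77 log2 units (limma SE 0.26, adjusted p 0.0043), and the call held without any 1 array. *Ptpn2*, a tyrosine phosphatase that acts on PDGFRβ, was 9.23, 10.27 and 9.55 at 3 months and 11.69, 11.78 and 11.46 at 12 months, a rise of 1.96 (SE 0.32, adjusted p 0.0206). *Socs3*, an inhibitor of cytokine receptors that signal through JAK kinases, was 8.43, 8.02 and 7.72 at 3 months and 6.84, 6.87 and 6.66 at 12 months. It fell by 1.27 log2 units (SE 0.26, adjusted p 0.0368). The ages did not overlap for any of the 3. The call of *Ptpn2* was lost without either replicate 1 or either replicate 3 (adjusted p 0.0625 to 0.0861). That of *Socs3* was kept only without 12-month replicate 2 (adjusted p 0.0486) and lost without each of the other 5 (0.0591 to 0.130).

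The list of the VEGF family and related receptors also held the receptor ligands *Csf1*, *Il34* and *Kitlg*, which are not of the VEGF family. None of its 10 tested genes was called (median 0.44). *Pgf*, placental growth factor, was 9.54, 8.63 and 8.45 at 3 months and 7.95, 7.52 and 7.35 at 12 months, a difference of -1.27 (limma SE 0.36, adjusted p 0.0711). *Vegfb* was 6.16, 7.12 and 5.74 at 3 months and 8.50, 7.20 and 9.08 at 12 months, a difference of 1.92 (SE 0.57, adjusted p 0.0779). In neither gene did the ages overlap. *Vegfb* passed the test when 12-month replicate 2 was left out (2.45, adjusted p 0.0319).

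Of 16 tested genes that respond to growth factors, 1 was called (median 0.54). *Dusp6*, a phosphatase that ends ERK signals and is itself induced by them, was 3.20, 3.70 and 3.74 at 3 months and 6.18, 5.30 and 6.30 at 12 months. It rose by 2.38 log2 units (limma SE 0.34, adjusted p 0.0149), but was above background on only 2 of 3 arrays at each age, and the rise was 0.68 with the normexp background correction (adjusted p 0.0561). The call was lost without either replicate 1 and without 12-month replicate 3 (adjusted p 0.0566 to 0.0689). *Dusp1*, a related phosphatase, differed by 1.55 (adjusted p 0.0537), and the early response gene *Fos* by 3.26 with a standard error of 1.13 (adjusted p 0.106). *Egr3*, an early response transcription factor, differed by -2.06 (adjusted p 0.0565). *Myc* had the largest difference of the list, 3.79 (limma SE 0.99, adjusted p 0.0619), and was above background on 2 of 3 arrays at 3 months. Of the 16 genes, 12 were above 0. *Dusp1*, *Fos*, *Egr3* and *Myc* were named after their values were seen.

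Markers of the cell types that the islet preparation could hold were set beside the family, because PDGFRβ marks pericytes and PDGFRα fibroblasts. Over 9 lists, 65 of 88 markers could be tested, with 4 higher, 4 lower and a median difference of -0.07, so that 12.3% were called beside 8.37% of all probes. By the looser rule 12 were higher and 7 lower, or 29.2% beside 22.0%. Their part in the *Pdgfrb* difference was not tested.

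All 9 pericyte and smooth muscle markers on the array were tested, each above background on at least 2 arrays of each age, with 1 higher, 2 lower and a median of 0.42. *Abcc9*, a potassium channel subunit of pericytes and vascular muscle, was 5.84, 7.41 and 6.89 at 3 months and 9.69, 9.62 and 9.31 at 12 months. It rose by 2.83 log2 units (limma SE 0.42, adjusted p 0.0162), and the call was lost without 3-month replicate 3, 12-month replicate 1 or 12-month replicate 3 (0.0517 to 0.0701). *Notch3*, a receptor of mural cells, fell from 9.95, 9.45 and 10.32 to 7.997, 8.54 and 8.33, a difference of -1.62 (adjusted p 0.0291). *Cnn1*, a smooth muscle contractile protein, fell from 11.20, 10.41 and 10.35 to 9.47, 8.49 and 8.49, a difference of -1.84 (adjusted p 0.0375). Markers of the same list thus moved in opposite directions, and the mean level of the 8 markers with a value on every array overlapped between ages, at 9.03 to 9.57 at 3 months and 8.99 to 9.83 at 12 months. *Des* lacked a value on 3-month replicate 3. *Cnn1* did not keep its call without any 1 array (adjusted p 0.0575 to 0.111), and *Notch3* kept it only without 3-month replicate 2 or 12-month replicate 2 (adjusted p 0.0814 to 0.12 without the others).

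**Figure D4:**
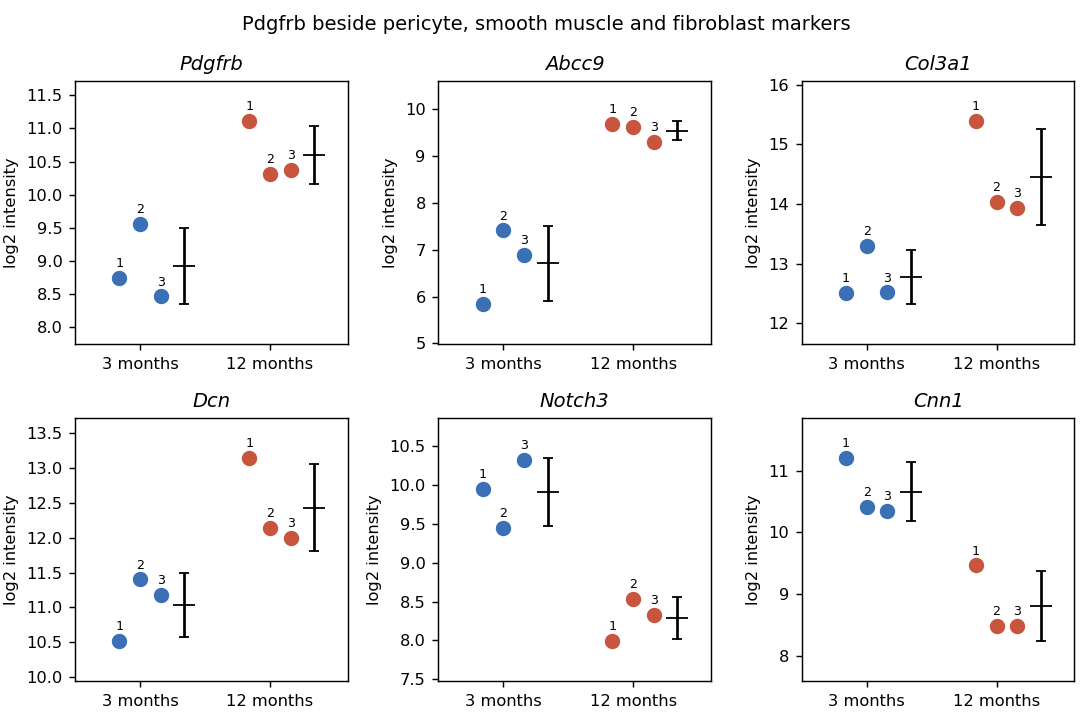
Log2 intensity (quantile-normalized) of *Pdgfrb* and 5 markers of pericytes, smooth muscle or fibroblasts on each array, with 3-month arrays in blue, 12-month arrays in red, replicate numbers above the points and bars of the mean ± SD (n = 3). *Abcc9*, *Col3a1* and *Dcn* are higher on every 12-month array, as *Pdgfrb* is, and *Notch3* and *Cnn1* are lower on every 12-month array.

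None of the 10 tested fibroblast and stellate markers was called, although 5 were higher by the looser rule, which called 10.1% of all probes as higher, and the median was 1.13. Of the 10, 6 were above and 4 below 0, the latter *Fbln1* at -0.66, *Fn1* at -0.59, *Pdpn* at -0.19 and *Vim* at -0.07. *Col3a1*, a fibrillar collagen, was 12.51, 13.29 and 12.52 at 3 months and 15.39, 14.04 and 13.94 at 12 months, a difference of 1.68 (limma SE 0.46, adjusted p 0.067). *Dcn*, the matrix proteoglycan decorin, was 10.52, 11.40 and 11.18 at 3 months and 13.14, 12.14 and 12.00 at 12 months, a difference of 1.39 (SE 0.40, adjusted p 0.0734). For both genes the highest array was 12-month replicate 1, which was also the highest for *Pdgfrb*. That array was likewise the highest for *Pdgfra*, whose ages overlapped, and for *Fn1* and *Vim*, whose differences were below 0. *Fbln1* and *Pdpn* were highest on 3-month replicate 1. The mean level of the 10 markers was 10.44 to 10.87 at 3 months and 10.84 to 12.28 at 12 months.

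Endothelial cells and platelets are sources of the B chain. None of the 7 tested endothelial markers was called (median -0.59), and their mean level was 9.55 to 9.86 at 3 months and 8.92 to 9.58 at 12 months. *Cdh5*, the cadherin of endothelial junctions, was 4.45, 5.87 and 5.96 at 3 months and below the level called measured on every 12-month array, at 3.11, 2.84 and 4.01. It passed the filter through its 3-month arrays, so its p is not read, and with the normexp background correction its difference was -0.50. *Tek*, the angiopoietin receptor, differed by -1.13 (adjusted p 0.072). Of 4 tested platelet markers none was called (median -0.54), with *Gp1bb* at -0.71 (adjusted p 0.113) and *Ppbp* at -1.20 (adjusted p 0.389). *Ppbp* was above background on 1 of 3 arrays at 12 months, and its difference was -0.28 without 12-month replicate 3, -2.25 without 12-month replicate 2 and -0.13 with the normexp background correction. Of the 7 tested endothelial markers 3 were above 0, the defining marker *Pecam1* at 1.23 (limma adjusted p 0.124), *Erg* at 0.41 and *Emcn* at 0.19. *Erg* was not above background on any 12-month array.

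**Figure D5:**
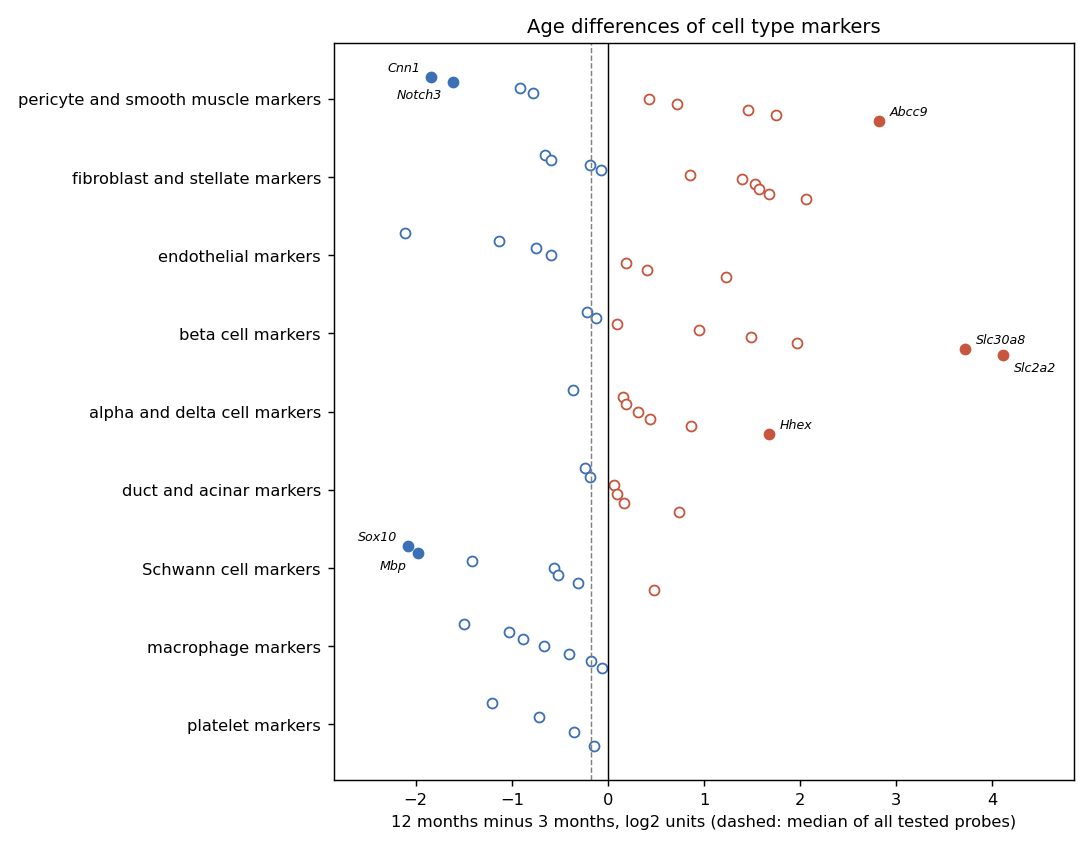
Differences between ages (12 months minus 3 months, log2 units) of 65 tested cell type markers by list, where each point is a gene, red is higher and blue lower at 12 months, and filled points have an adjusted p under 0.05. The dashed line is the median of all tested probes, -0.17, and the pericyte and smooth muscle list holds called genes on both sides, *Abcc9* at 2.83 and *Cnn1* at -1.84.

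The beta cell list held the largest rises among the markers. *Slc2a2*, the glucose transporter GLUT2, rose from 11.06 ± 0.53 to 15.17 ± 0.38 (SD, n = 3), a difference of 4.11 (limma adjusted p 0.00369), and *Slc30a8*, the zinc transporter of insulin granules, differed by 3.72 (adjusted p 0.00904). Both calls held without any 1 array, and the median of the 8 tested markers was 1.22. In the alpha and delta cell list (7 tested, median 0.32) *Hhex*, a transcription factor of delta cells, rose by 1.68 (adjusted p 0.0236), a call kept only without 3-month replicate 2 or 12-month replicate 2 and lost without each of the other 4 (0.057 to 0.0967). No duct or acinar marker was called (6 tested, median 0.08), with *Krt19* at -0.23 and *Amy2a3* at 0.17. *Amy2a3* is also among the brightest probes, and it was at -0.31 with each array scaled to its 75th percentile. Schwann cell markers had a median of -0.56 (7 tested, 2 lower) and macrophage markers a median of -0.66 (7 tested, none called). *Mbp* fell by 1.98 log2 units (adjusted p 0.0184) and *Sox10* by 2.08 (adjusted p 0.0335, without a value on 3-month replicate 1). The call of *Mbp* was lost without either replicate 1 or either replicate 3 (adjusted p 0.0566 to 0.0752), and that of *Sox10* was kept only without 12-month replicate 2 (adjusted p 0.0348) and otherwise lost (0.0642 to 0.11). *Mrc1* was at -1.50 and *C1qa* at -1.03 (adjusted p above 0.05), and *Cd163* was not above background on any array. Of 5 other *Mbp* probes 4 were lower with adjusted p values of 0.00966 to 0.0266 and 1 was at 0.55 (adjusted p 0.404).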

How the data were processed

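RNA of islets from 3 rats aged 3 months and 3 rats aged 12 months was measured on 1 array each, with groups taken from the labels. Per the file headers, the authors quantified spot intensity with Agilent Feature Extraction 11.0.1.1. The deposited background-subtracted intensity had not been normalized between arrays. A second deposited table, of 12145 probes, holds the authors' log2 values, which followed the values computed here with a correlation of at least 0.9996 on each array. Columns of probe names, control types and quality marks were read as well. Arrays have no read depth, and their number limits the precision.

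Spots marked as outliers were dropped, log2 intensities of the remaining spots were averaged per probe (42136 spots, 24684 probes), and probes were quantile normalized. Probes well above background on at least 3 of 6 arrays were kept (17944, of which 17941 could be tested), and none was saturated. The age difference was fitted without a block in limma 3.58.1 (functions lmFit and eBayes, two-sided) under R 4.3.3. Its p-values were adjusted by Benjamini-Hochberg over all tested probes and called under 0.05. Single values and pairs were also compared with exact two-sided permutation tests (20 arrangements, smallest p 0.1).

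Probes were named by RefSeq accession without version through a table of assembly GRCr8 (14294 probes named). The probe with the highest mean represented a gene. No coordinates of probes or genes are given, since the array design uses another build. The members, the gene lists, the markers and the tests were chosen with earlier results of these data known. Genes named were the 6 members, the called genes of each list or otherwise the 2 with the smallest p, the 3 genes with profiles most like each receptor, and *Ins1*, *Ins2* and *Gcg*. Genes outside that rule (*Pik3r1*, *Csf1*, *Il34*, *Kitlg*, *Dusp1*, *Fos*, *Egr3*, *Myc*, *Des*, *Fbln1*, *Fn1*, *Pdpn*, *Vim*, *Pecam1*, *Erg*, *Emcn*, *Cd163*) were named after their values were seen.

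On simulated data with 200 of 17876 probes changed, the fit at the adjusted threshold recovered 0% of 2-fold, 45% of 4-fold and 74% of 8-fold changes. It made 0, 6 and 10 false calls. In the data 8.37% of tested probes were called, a larger share than was changed in the simulation. The adjusted threshold is less strict with more changed probes, so the recovered shares do not carry over to the data. Alternatives were other scalings and background corrections, the authors' table, other filters, trend and robust fits, array weights, replicate blocks, t-tests and fits without 1 array. The study's methods name Student's t-test and its supplement a paired t-test for the array p-values, and both were run on the same values. Arrays 1 and 2 of each age carry their number in the labels, whereas the 12-month array 3 carries none and was set against 3-month array 3 by elimination. The arrays so matched did not deviate together (correlations of -0.01, -0.31 and, for the assigned match, -0.26), and the numbers were not taken to pair the rats.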

Additional observations from a re-analysis of the deposited data

How the results depend on the processing

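The *Pdgfrb* difference of 1.68 kept its direction in all 18 alternatives. It kept an adjusted p under 0.05 with the 75th percentile shift (1.64), normexp (1.47), the authors' table (1.69), both other filters, the trend and robust fit and array weights (2.02). It lost it with the replicate block of 2 numbered pairs (1.56, adjusted p 0.317), of 3 pairs, the third by elimination (1.68, 0.129), the 4 arrays whose names share an ending (1.70, 0.237), the methods' t-test (1.68, 0.114) and the paired t-test of the study's supplement (1.68, 0.332), and ranged from 1.42 to 2.00 with 1 array left out. These last fits have fewer arrays or residual degrees of freedom; beyond that the cause was not tested. *Pdgfra* ranged from -0.21 to 0.36 and *Pdgfd* from -0.67 to 0.17 with 1 array left out.

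The count of called members (1) was 0 with both replicate blocks, the 4 arrays and both t-tests, and 0 to 1 with 1 array left out. At the looser rule it was 2 without the filter, which lets *Pdgfc* in, and 0 with the paired t-test. Called probes (1502) numbered 2339 without the filter, 5683 with array weights (whose fit stopped before converging), 0 and 97 with the replicate blocks of 2 and 3 pairs, 0 with the 4 arrays, 437 and 1 with the methods' t-test and the paired t-test, and between 208 and 2163 with 1 array left out. At the looser rule (3953) they numbered 2102 with normexp, 2379 in the authors' table, 2604 with the 4 arrays, 3122 to 4885 with 1 array left out and 1550 with the paired t-test.

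Called pathway genes (7) numbered 13 with normexp, 12 with the trend and robust fit, 28 with array weights, 0 and 1 with the replicate blocks, 0 with the 4 arrays, 2 and 0 with the t-tests, and 2 to 10 with 1 array left out. Called markers (8) numbered 14 with the trend and robust fit, 20 with array weights, 0 and 1 with the replicate blocks, 0 with the 4 arrays, 1 and 0 with the t-tests, and 2 to 10 with 1 array left out.

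Signs turned in these results only where no call had been made. Under the 75th percentile shift *Amy2a3* was at -0.31, *Ins1* at -0.67, *Gcg* at -0.23, *Tnfrsf25* at -0.18 and *Ccna2* at -0.10; *Tnfrsf25* was at -0.067 with the 4 arrays. With 1 array left out *Krt19* ran from -0.43 to 0.019, *Ins1* from -0.022 to 0.19, *Tnfrsf25* from -0.33 to 0.30, *Pros1* from -0.039 to 0.56 and *Ccna2* from -0.10 to 0.53. The replicate numbers pair the arrays by number only. No block for scan could be fitted, since each scan holds 1 age, the slide was not used here, and the mean over all probes of a gene changes no member, which have 1 probe each.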
